A study of Homo sapiens with 6 samples.

Results

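The genes of BDNF and GDNF signalling, 2 growth factors and the receptors that read them, were examined in RNA sequencing of SH-SY5Y cells, a human neuroblastoma line. The set was taken by gene name from the deposited table and holds 10 of its 61860 genes, namely the ligands BDNF and GDNF, the neurotrophin receptors NTRK2, NTRK3, NGFR and SORT1, and the GDNF-family receptors RET, GFRA1, GFRA2 and GFRA3. All 6 libraries came from cells that had been differentiated with all-trans retinoic acid and then made insulin resistant (IR) by insulin at 100 nM together with D-glucose at 30 mM over 24 h. In the IR+Oligonol group (3 libraries) the cells also received Oligonol, a lychee-derived polyphenol preparation, at 500 ng/mL for 24 h. The IR control group (3 libraries) carried the same differentiation and insulin resistance without Oligonol, and cells without insulin resistance were not analysed here. The labels do not say whether the libraries of a group came from separate cultures, so p-values measure the spread between libraries, which may be technical, and SH-SY5Y is 1 clonal line.

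Brain-derived neurotrophic factor (BDNF) binds the receptor tyrosine kinase TrkB, encoded by NTRK2, and its uncleaved precursor binds a complex of the p75 receptor (NGFR) and sortilin (SORT1). Glial cell line-derived neurotrophic factor (GDNF) binds the membrane-anchored co-receptor GFRA1, and the pair then engages the kinase RET, while GFRA2 and GFRA3 serve the related ligands neurturin and artemin. Both kinases feed the Ras-ERK, PI3K and phospholipase C branches through shared adaptors. Retinoic acid is known to raise TrkB and RET in this line, and differentiated cells respond to added BDNF.

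The authors' estimated counts summed to 19457923 to 20912945 per IR+Oligonol library and to 22738203 to 32209583 per IR control library. They behaved as abundances already divided by transcript length, so levels given below as CPM (each library scaled to its own size, with the TMM correction between libraries) can be compared between genes per length. Of all tested genes, 48.9% passed the test between the groups, 26.0% as higher and 23.0% as lower with Oligonol (edgeR quasi-likelihood test, Benjamini-Hochberg adjusted p under 0.05, 16574 genes). Over the whole transcriptome fold changes ran with the GC content of the transcript, and the share passing was 5.44% once that trend was removed from each library. The split of 4304 genes called higher and 3808 called lower with TMM became 6396 and 1665 under the scaling of the authors' deposited signal, and 11293 and 37 with library totals alone. Leaving out IR control 3 brought the genes called to 782, and leaving out IR control 2, IR+Oligonol 1 or IR+Oligonol 3 brought them to 2511, 2344 or 1835.

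In both groups RET was the most abundant of the 10 genes, followed by NTRK2 and then SORT1, and both ligands stood at the bottom. With Oligonol NTRK2 and SORT1 rose, by 0.82 and 1.02 on the log2 scale, and these were the 2 of 5 tested genes of the set that passed, against 48.9% of all tested genes. The other 3 tested genes, RET, GFRA1 and GFRA2, were lower with Oligonol in every library but did not pass. The remaining 5 genes, NGFR, NTRK3, GFRA3, BDNF and GDNF, were too low for the filter on low counts and have no test on this scale. Without overlap between the groups were 7 of the 10 genes, 3 higher and 4 lower with Oligonol. These were all 5 tested genes, and BDNF and NGFR, which were not tested. Of all tested genes 62.6% did not overlap, 33.8% as higher and 28.8% as lower. These shares are over tested genes alone, so their counterpart is the 5 tested genes, 2 higher and 3 lower.

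**Figure D1:**
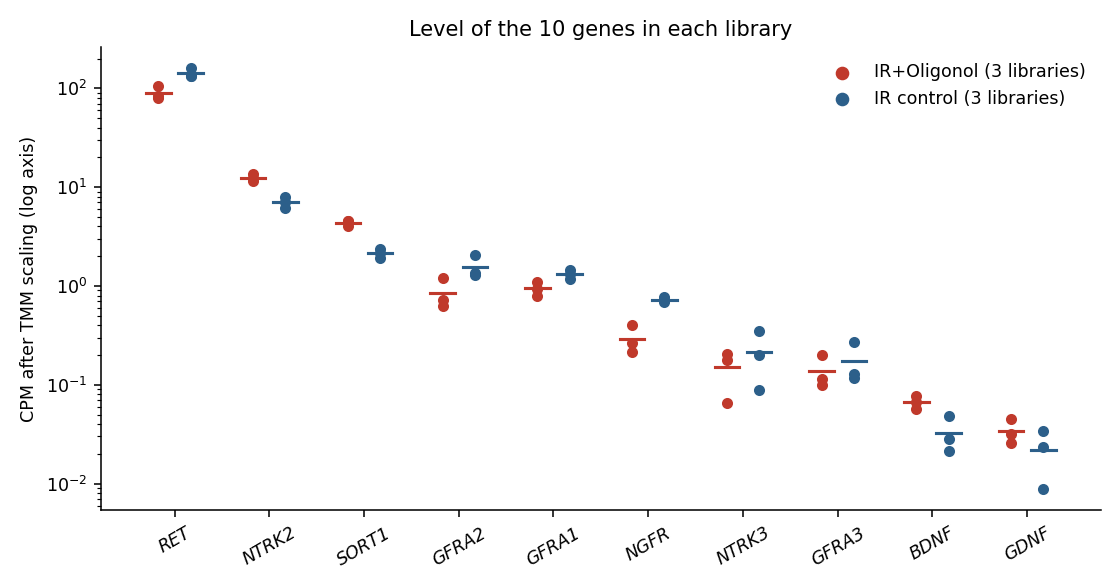
Level of each of the 10 genes in every library, as CPM after TMM scaling on a log axis, with IR+Oligonol libraries at the left and IR control libraries at the right of each gene. Points are libraries and bars are group means (n = 3 each), and a reader should see the span between RET, at a mean of 90.3 CPM with Oligonol and 141.2 CPM in the IR control, and GDNF, at 0.0340 CPM with Oligonol and 0.0221 CPM in the IR control.

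The ligand BDNF (chr11:27654893-27722058, minus strand, GRCh38.p13 as all gene positions here) was at 0.0567, 0.0762 and 0.0666 CPM in the IR+Oligonol libraries, against 0.0215, 0.0479 and 0.0281 CPM in the IR control libraries. Every IR+Oligonol library lay above every IR control library, and the means were 0.0665 ± 0.00977 CPM for IR+Oligonol and 0.0325 ± 0.0138 CPM for IR control (SD, n = 3 each). To show what these levels rest on, the estimated counts were turned back into reads with each gene's median transcript length. BDNF then rested on 17.8 to 21.5 read equivalents per IR+Oligonol library and on 5.22 to 10.96 per IR control library, above a detection floor set at 3 reads in all 6. Tested on read equivalents, BDNF had a log2 fold change of 0.99 ± 0.45 (SE) and an edgeR adjusted p of 0.0805, and so did not pass. Removal of the GC trend left 0.13 ± 0.45 (adjusted p = 0.872), and protein-coding genes of like GC content had a median of 0.90.

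Exons of BDNF share 701 nt with BDNF-AS, a long non-coding gene on the opposite strand. BDNF-AS had 22.5, 6.67 and 22.8 estimated counts in the IR+Oligonol libraries, against 6.5, 6.03 and 7.94 in the IR control libraries, more than BDNF itself in all 6. The library kit marks strand, but no source used here says whether strand entered the counting, so reads from the shared stretch cannot be told apart.

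GDNF (chr5:37812677-37840041, minus strand) was at the limit of detection. It had 0.960, 0.810 and 1.56 estimated counts in the IR+Oligonol libraries, against 0.390, 0.530 and 0.150 in the IR control libraries. With its median transcript of 817 nt these are 1.38 to 2.38 read equivalents in IR+Oligonol libraries and 0.375 to 1.33 in IR control libraries, below 3 reads in all 6 libraries. A floor of 3 reads corresponds to 1.61 to 2.09 estimated counts per IR+Oligonol library and 1.19 to 1.22 per IR control library, and no fold change is given. If every read came from the longest annotated transcript of 3810 nt, the same values would be 7.62 to 13.2 read equivalents in IR+Oligonol and 2.09 to 7.41 in IR control libraries. GDNF exons share 526 nt with GDNF-AS1, which had under 1 estimated count in each library. These floors cover counting error alone.

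**Figure D2:**
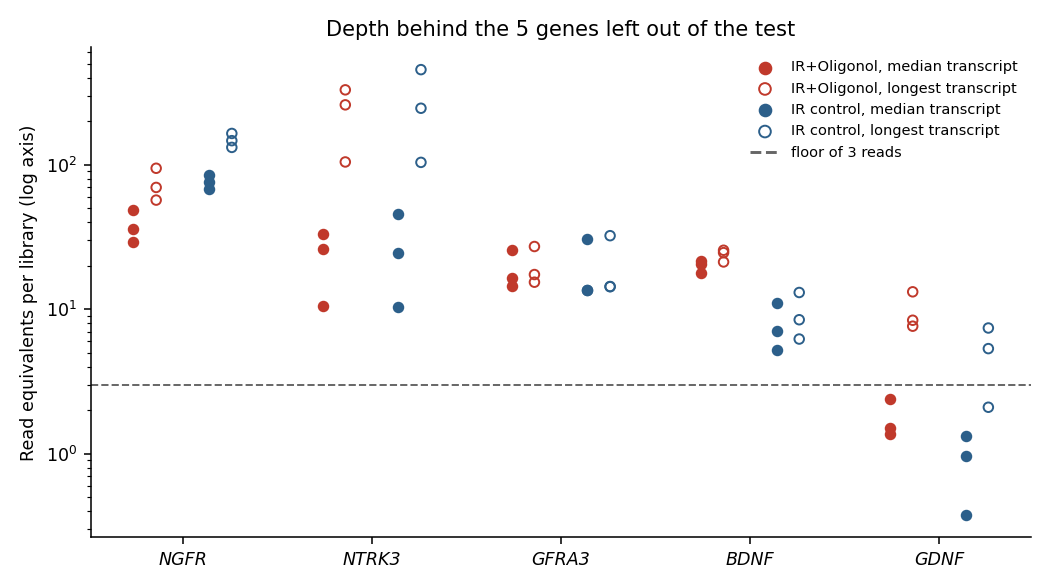
Read equivalents per library, on a log axis, behind the 5 genes that the filter on low counts left out, with IR+Oligonol libraries left of IR control libraries. Filled points use the gene's median transcript length, open points its longest transcript, and the dashed line is the floor of 3 reads, below which only GDNF has libraries.

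The BDNF receptor NTRK2 (chr9:84668375-85095751, plus strand) was at 13.4, 11.5 and 12.3 CPM in the IR+Oligonol libraries, against 7.89, 6.10 and 7.13 CPM in the IR control libraries. The groups did not overlap, with means of 12.4 ± 0.977 CPM for IR+Oligonol and 7.04 ± 0.897 CPM for IR control (SD, n = 3 each), a ratio of 1.76. The log2 fold change was 0.82 ± 0.19 (SE, edgeR adjusted p = 0.0119). NTRK2 was the best covered neurotrophin receptor, with 5617 to 7335 read equivalents per IR+Oligonol library and 2426 to 3331 per IR control library. With 1 library left out, adjusted p was 0.0543 without IR+Oligonol 1, 0.0555 without IR+Oligonol 3, 0.0818 without IR control 2 and 0.0668 without IR control 3. With the GC trend removed the log2 fold change was 0.11 ± 0.14 (adjusted p = 0.654).

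SORT1 (chr1:109309568-109397918, minus strand) encodes sortilin, which sorts BDNF into the regulated secretory pathway and serves as co-receptor for its precursor. Its level was 4.52, 4.02 and 4.52 CPM in the IR+Oligonol libraries, against 2.38, 1.91 and 2.15 CPM in the IR control libraries. The lowest IR+Oligonol library was well above the highest IR control library, and the means of 4.35 ± 0.293 CPM for IR+Oligonol and 2.15 ± 0.240 CPM for IR control (SD, n = 3 each) differed 2.03-fold. The log2 fold change was 1.02 ± 0.18 (SE, edgeR adjusted p = 0.00761), the smallest adjusted p in the set. The call was lost without IR control 3, where adjusted p was 0.0503. With the GC trend removed the log2 fold change was 0.43 ± 0.14 (adjusted p = 0.107).

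NGFR (chr17:49495293-49515008, plus strand) encodes the p75 receptor, which binds all neurotrophins and pairs with sortilin. It was at 0.215, 0.398 and 0.266 CPM in the IR+Oligonol libraries, against 0.718, 0.685 and 0.774 CPM in the IR control libraries. No library of one group reached the other, and the means were 0.293 ± 0.0947 CPM for IR+Oligonol and 0.726 ± 0.0451 CPM for IR control (SD, n = 3 each). Low counts kept NGFR out of the main test. On read equivalents, with 29.4 to 48.8 per IR+Oligonol library and 68.1 to 85.0 per IR control library, NGFR fell by 1.40 on the log2 scale (SE 0.29, edgeR adjusted p = 0.00312). On that scale the change was -0.37 ± 0.21 with the GC trend removed (adjusted p = 0.277). On estimated counts NGFR did not pass with no filter (-1.33, edgeR adjusted p = 0.0552) or with DESeq2 (-1.50, adjusted p = 0.0532), and it passed with TMM on protein-coding genes (-1.32, adjusted p = 0.00162). It entered 5 of the fits with 1 library left out, and passed without IR+Oligonol 2 (adjusted p = 0.00733) but not in the other 4 (adjusted p = 0.0609 to 0.0732).

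NTRK3 (chr15:87859751-88256791, minus strand), whose product TrkC is the receptor for neurotrophin 3, was at 0.205, 0.180 and 0.0657 CPM in the IR+Oligonol libraries, against 0.198, 0.0886 and 0.352 CPM in the IR control libraries. The groups overlapped and the spread within each was wider than the difference of their means, 0.150 ± 0.0743 CPM for IR+Oligonol and 0.213 ± 0.132 CPM for IR control (SD, n = 3 each). On read equivalents, 10.5 to 33.1 per IR+Oligonol library and 10.4 to 45.6 per IR control library, the log2 fold change was -0.62 ± 0.52 (edgeR adjusted p = 0.330). With its longest transcript NTRK3 rested on 104.6 to 330.6 read equivalents per IR+Oligonol library and 104.0 to 456.3 per IR control library.

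RET (chr10:43077064-43130351, plus strand), the kinase that all GDNF-family ligands converge on, was at 80.5, 106.2 and 84.1 CPM in the IR+Oligonol libraries, against 158.9, 131.8 and 132.9 CPM in the IR control libraries. All IR+Oligonol libraries were below all IR control libraries, with means of 90.3 ± 13.9 CPM for IR+Oligonol and 141.2 ± 15.4 CPM for IR control (SD, n = 3 each). The log2 fold change was -0.65 ± 0.25 (SE) with an edgeR adjusted p of 0.0584, short of the threshold. RET passed as lower with RLE scaling (adjusted p = 0.0487), with limma-voom (adjusted p = 0.0475) and with DESeq2 (log2 fold change -0.78, adjusted p = 0.00115), and also without IR+Oligonol 2 (log2 fold change -0.97, adjusted p = 0.01), the IR+Oligonol library with the highest RET. Of all genes 48.7% passed with RLE scaling, 49.1% with limma-voom and 28.1% with DESeq2. RET did not pass with no filter (edgeR adjusted p = 0.190), with TMM on protein-coding genes (adjusted p = 0.0788) or with any other library left out (adjusted p = 0.11 to 0.19). Nor did RET pass with upper-quartile scaling (edgeR adjusted p = 0.0760) or with replicate number as a block (adjusted p = 0.0869). With at least 10 counts in all libraries it did not pass either (adjusted p = 0.172). The log2 fold change was 0.16 with the GC trend removed (adjusted p = 0.593). With library totals alone it was 0.69 (adjusted p = 0.0204), below the median of 1.53 that all tested genes had under that scaling.

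GFRA1 (chr10:116056925-116276803, minus strand), the co-receptor that binds GDNF, was at 0.937, 0.795 and 1.11 CPM in the IR+Oligonol libraries, against 1.31, 1.17 and 1.46 CPM in the IR control libraries. The groups were close but did not overlap, with means of 0.946 ± 0.156 CPM for IR+Oligonol and 1.31 ± 0.141 CPM for IR control (SD, n = 3 each). The log2 fold change was -0.48 ± 0.24 (SE, edgeR adjusted p = 0.127) and did not pass on this scale. On read equivalents GFRA1 fell by 0.57 (SE 0.21, adjusted p = 0.0349). It was the 1 gene of the set that still passed there after the GC trend was removed, with a log2 fold change of -0.58 ± 0.16 (adjusted p = 0.0466), where 10.7% of all genes passed and 6.07% passed as lower. With the longest transcript the value was -0.63 ± 0.16 (adjusted p = 0.0491), where 6.87% of all genes passed and 4.01% passed as lower. That removal on the deposited estimated counts gave -0.52 ± 0.20 (adjusted p = 0.150). On estimated counts with 1 library left out GFRA1 never passed (edgeR adjusted p = 0.096 to 0.240). With the GC trend removed as well it did not pass either (adjusted p = 0.190 to 0.335). The read-equivalent fits with the GC trend removed were added after seeing the data, and were not run with libraries left out.

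GFRA2 (chr8:21690398-21812357, minus strand), the neurturin co-receptor, was at 0.718, 1.21 and 0.633 CPM in the IR+Oligonol libraries, against 1.35, 1.29 and 2.06 CPM in the IR control libraries. The highest IR+Oligonol library came within 0.1 CPM of the lowest IR control library, and the means were 0.852 ± 0.309 CPM for IR+Oligonol and 1.57 ± 0.427 CPM for IR control (SD, n = 3 each). The log2 fold change was -0.89 ± 0.33 (SE, edgeR adjusted p = 0.0516). GFRA2 passed as lower with RLE scaling (adjusted p = 0.0434), with limma-voom (adjusted p = 0.0314) and without IR+Oligonol 2 (log2 fold change -1.40, adjusted p = 0.0148). It also passed with TMM on protein-coding genes (edgeR adjusted p = 0.0134) and with at least 10 counts in all libraries (adjusted p = 0.0376). It did not pass with DESeq2 (adjusted p = 0.131), with no filter (edgeR adjusted p = 0.140) or with any other library left out (adjusted p = 0.0789 to 0.180). Nor did GFRA2 pass with upper-quartile scaling (edgeR adjusted p = 0.0666) or with replicate number as a block (adjusted p = 0.0762). With the GC trend removed on estimated counts it was at -0.16 (adjusted p = 0.718). With library totals alone the log2 fold change was 0.46 (adjusted p = 0.220). On read equivalents GFRA2 fell by 0.96 (SE 0.31, adjusted p = 0.0193), and with the GC trend removed there the change was -0.20 ± 0.23 (adjusted p = 0.588).

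GFRA3 (chr5:138252380-138274621, minus strand), the artemin co-receptor, was at 0.101, 0.198 and 0.115 CPM in the IR+Oligonol libraries, against 0.274, 0.129 and 0.117 CPM in the IR control libraries. The groups overlapped, and on 14.6 to 25.7 read equivalents per IR+Oligonol library and 13.5 to 30.5 per IR control library the log2 fold change was -0.44 ± 0.45 (SE, edgeR adjusted p = 0.430). Once the GC trend was taken out it was 0.43 ± 0.41 (adjusted p = 0.515).

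On read equivalents 9 of the 10 genes could be tested and 6 passed, NTRK2 and SORT1 as higher and RET, GFRA1, GFRA2 and NGFR as lower with Oligonol, where 50.8% of all 18870 genes tested passed, 26.4% as higher and 24.4% as lower. With the longest transcript in place of the median one the same number of genes of the set passed, where 44.8% of all genes did. The direction of each gene on this scale ran with its transcript GC content. The 3 genes with the lowest GC content, BDNF at 41.6%, NTRK2 at 44.5% and SORT1 at 45.8%, had positive log2 fold changes. The other 6 genes with a fold change, at 50.7 to 65.3%, had negative ones. Protein-coding genes within 2 percentage points of the GC content of NTRK2 had a median log2 fold change of 0.67, against 0.72 for NTRK2 itself. The genes around SORT1 had a median of 0.56, against 0.93 for SORT1.

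For NGFR, the most GC-rich of the set, genes of like GC content had a median of -1.11, against -1.40 for NGFR. RET, at -0.72, lay above the median of its GC neighbours, which was -0.91, and GFRA2, at -0.96, lay near theirs, at -0.86. GFRA1 was at -0.57, where 1880 genes of like GC content had a median of -0.02 and 9.31% of them were called lower.

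**Figure D3:**
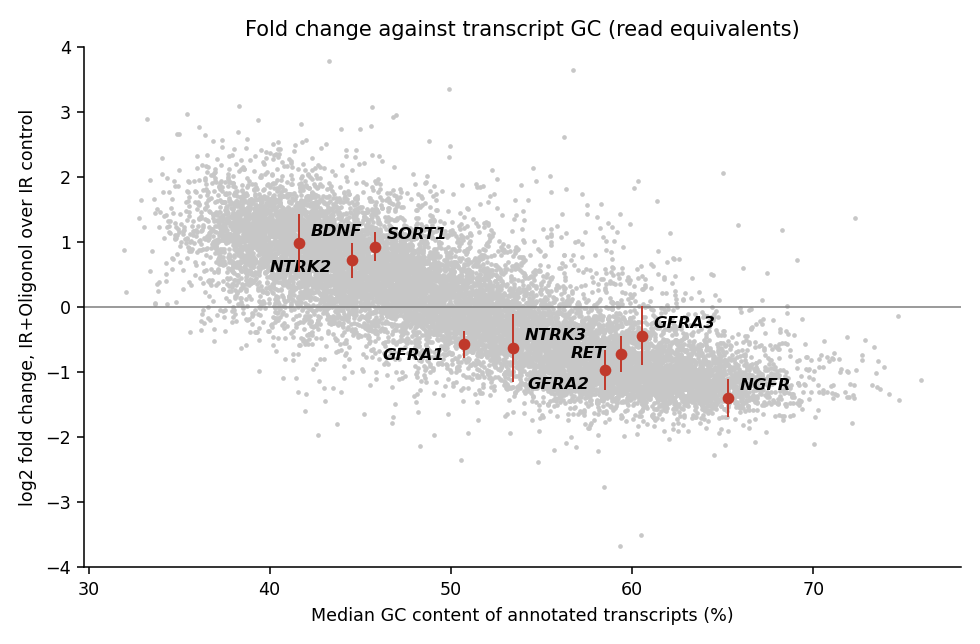
Log2 fold change on read equivalents (IR+Oligonol over IR control) against median transcript GC content in percent, with protein-coding genes in grey and 9 genes of the set in red with their standard errors. NTRK2, SORT1 and BDNF lie within the grey cloud above 0 at the left, RET, GFRA2 and NGFR within it below 0 at the right, and GFRA1 lies at -0.57 where the cloud is centred near 0.

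The scaling between libraries moved every gene of the set together. The median log2 fold change of all tested genes was 0.15 with TMM, 0.55 with the library scaling implied by the authors' deposited signal column and 1.53 with library totals alone. Under the deposited scaling NTRK2 rose by 1.22 (edgeR adjusted p = 0.00344) and SORT1 by 1.42 (adjusted p = 0.00278), while RET was at -0.26 (adjusted p = 0.358), GFRA1 at -0.08 (adjusted p = 0.832) and GFRA2 at -0.49 (adjusted p = 0.211). NTRK2 and SORT1 therefore kept their sign under all 3 scalings, and RET, GFRA1 and GFRA2 had positive values with library totals alone, all below the median of all tested genes there. In bulk RNA fewer cells of a type and less RNA per cell cannot be told apart, which holds for every gene here.

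**Figure D4:**
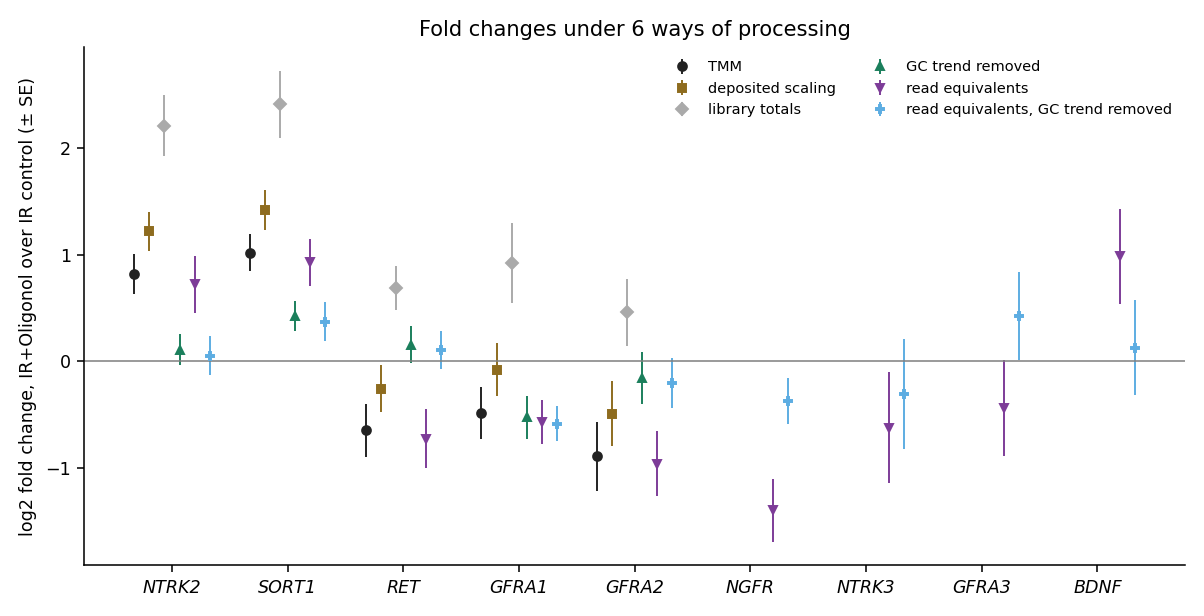
Log2 fold change (IR+Oligonol over IR control) with its standard error for 9 genes under 6 ways of processing, each with its own symbol. NTRK2 and SORT1 lie above 0 throughout. Once the GC trend is removed NTRK2 comes close to 0 (0.11), and SORT1 is lower than with TMM but less close to 0 (0.43). RET moves from one side of 0 to the other, and GFRA1 stays near -0.5 in all but the deposited scaling (-0.08) and library totals (0.92).

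Quantities taken within a library do not depend on the scaling between libraries. RET made up 79.9 to 85.3% of the summed level of the 10 genes in IR+Oligonol libraries and 90.4 to 92.0% in IR control libraries. NTRK2 made up 9.20 to 13.3% in IR+Oligonol and 4.26 to 4.85% in IR control libraries, and SORT1 made up 3.22 to 4.49% in IR+Oligonol and 1.33 to 1.46% in IR control libraries. NTRK2, SORT1 and RET differ in transcript GC content, at 44.5%, 45.8% and 59.4%, and with the GC trend removed their log2 fold changes were 0.11, 0.43 and 0.16. The other 7 genes together made up 2.23 to 2.31% in IR+Oligonol and 2.25 to 3.26% in IR control libraries.

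Of 4 ratios within a library, chosen after the values were seen, 3 are given here. SORT1 over NGFR was 21.1, 10.1 and 17.0 in the IR+Oligonol libraries, against 3.32, 2.78 and 2.77 in the IR control libraries. Every IR+Oligonol library was higher, which follows from SORT1 being higher and NGFR lower without overlap between the groups. The exact 2-sided permutation p of 0.1 therefore adds no evidence of its own. It is the smallest that 3 against 3 libraries allow (0.2 after Benjamini-Hochberg adjustment over the 4 ratios computed). The co-receptors relative to RET did not separate the groups. GFRA1 over RET averaged 0.0108 ± 0.00294 in IR+Oligonol and 0.00937 ± 0.00140 in IR control libraries, and GFRA2 over RET averaged 0.00927 ± 0.00193 in IR+Oligonol and 0.0112 ± 0.00372 in IR control libraries (SD, n = 3 each, exact permutation p = 0.6 for each). SORT1 and NGFR are 19.5 percentage points apart in transcript GC content, GFRA1 and RET 8.66 and GFRA2 and RET 0.877.

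In the order of levels, NTRK2 was clear of its neighbours in both groups. In IR+Oligonol libraries the ranges of GFRA1 and GFRA2 overlapped, as did those of NTRK3 and GFRA3. In IR control libraries SORT1 overlapped with GFRA2, GFRA2 with GFRA1, NTRK3 with GFRA3, and BDNF with GDNF. The genes whose pattern over the 6 libraries was most like that of RET, among 11650 protein-coding genes, were CRTC2, IVD and SLC7A5. Their root mean square log2 differences from RET were 0.022, 0.041 and 0.047. Their transcript GC content was 57.81%, 54.55% and 60.64%, beside 59.4% for RET, and their log2 fold changes were -0.64, -0.68 and -0.70. The patterns were compared with the GC trend left in.

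Promoter windows of 4 of the 5 tested receptor genes are shown. These are NTRK2 and SORT1, which rose on estimated counts with TMM, and RET and GFRA1, which were lower without passing there. None is shown for GFRA2. RefSeq starts on GRCh38.p14 were used, with 1 window of 200 bases per gene, from 250 to 51 bases before its most upstream RefSeq start. The windows of NTRK2 and GFRA1 lie inside the gene positions given above, which begin further upstream. Those of SORT1 and RET lie outside them. All 4 windows are free of annotated exons on their strand. Capitals mark matches on either strand to the motifs TGACGTCA (cAMP response element), TGACG (its half-site, contained in it), CACGTG (an E-box) and AGGTCA (a nuclear receptor half-site that retinoic acid receptors bind).
NTRK2 (chr9:84669056-84669255, + strand): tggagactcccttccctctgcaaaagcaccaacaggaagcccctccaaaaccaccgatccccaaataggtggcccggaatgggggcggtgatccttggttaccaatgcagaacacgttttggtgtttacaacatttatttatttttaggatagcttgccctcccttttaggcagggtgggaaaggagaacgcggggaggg
SORT1 (chr1:109397969-109398168, - strand): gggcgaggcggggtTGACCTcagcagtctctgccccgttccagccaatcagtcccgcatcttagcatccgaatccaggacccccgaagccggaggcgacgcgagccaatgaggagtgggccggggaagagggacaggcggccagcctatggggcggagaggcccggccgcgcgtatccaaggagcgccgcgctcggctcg
RET (chr10:43076819-43077018, + strand): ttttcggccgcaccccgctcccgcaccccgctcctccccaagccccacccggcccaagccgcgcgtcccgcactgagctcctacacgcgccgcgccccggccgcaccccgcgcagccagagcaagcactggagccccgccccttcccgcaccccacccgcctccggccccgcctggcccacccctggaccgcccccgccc
GFRA1 (chr10:116274756-116274955, - strand): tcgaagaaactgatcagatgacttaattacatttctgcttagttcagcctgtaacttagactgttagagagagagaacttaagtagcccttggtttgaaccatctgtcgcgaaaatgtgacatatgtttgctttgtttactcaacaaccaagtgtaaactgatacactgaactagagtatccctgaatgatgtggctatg

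The SORT1 window held 1 match, an AGGTCA half-site written as its reverse complement, and 9.67% of all 35116 RefSeq windows of that length hold one. None of the 4 motifs was in the printed windows of NTRK2, RET and GFRA1. In windows at other starts of the same genes, TGACG stood 2 times at 1 of the 4 NTRK2 starts and 1 time at 1 of the 4 GFRA1 starts. The corresponding shares of all windows were 0.951% for TGACGTCA, 16.0% for TGACG and 4.51% for CACGTG. The GC content of the printed windows was 52.0% for NTRK2, 70.0% for SORT1, 80.0% for RET and 38.5% for GFRA1.

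The neighbouring ligands and receptors outside the set were mostly low. Of 16 such genes 8 could be tested and 4 fell with Oligonol, among them NRTN, PSPN and GDF15, where 23.0% of all tested genes fell. NRTN, which encodes neurturin, was at 0.684 CPM in IR+Oligonol and 1.40 CPM in IR control libraries (log2 fold change -1.04, adjusted p = 0.0235). NTF3, which encodes neurotrophin 3, averaged 0.00576 CPM in IR+Oligonol libraries, was listed at 0 in the IR control libraries and was not tested. The median log2 fold change of the 8 tested genes was -0.63, beside 0.15 for all tested genes. These medians were 0.07 and 0.03 with the GC trend removed.

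Downstream of the kinases, 16 of 22 tested adaptor genes of Trk and RET passed, 7 higher and 9 lower, where 48.9% of all tested genes passed, 26.0% as higher and 23.0% as lower. The same shares of all genes apply to the lists that follow. DOK6, a RET adaptor, was at 0.864 CPM in IR+Oligonol and 0.183 CPM in IR control libraries, with a log2 fold change of 2.23 (edgeR adjusted p = 0.00722). It was among the few that also passed with the GC trend removed (1.59, adjusted p = 0.0418). KIDINS220, a scaffold that binds Trk receptors, rose by 1.23 (adjusted p = 0.00728). The phosphatase gene PTPN11, which encodes SHP2, rose by 0.87 (adjusted p = 0.00920) and passed with the GC trend removed (0.62, adjusted p = 0.0425).

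In the Ras-ERK cascade 9 of 25 tested genes rose and 5 fell, with a median log2 fold change of 0.32. NF1, which encodes the Ras inhibitor neurofibromin, rose by 1.6 (adjusted p = 0.00620), and by 0.68 with the GC trend removed (adjusted p = 0.0436). The list holds both activators and inhibitors of Ras.

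Among 21 tested partners and cleavage enzymes of the p75 receptor, 6 rose and 7 fell. ADAM17, the protease that sheds the p75 ectodomain, rose by 1.28 (edgeR adjusted p = 0.00722) and MAPK8, the kinase JNK1, by 1.33 (adjusted p = 0.00775). Of the genes that process and secrete proneurotrophins 6 of 16 could be tested and 4 fell, FURIN by 1.08 (adjusted p = 0.00840) and PLAT by 0.80 (adjusted p = 0.0230) with the smallest p-values. FURIN encodes a protease that cleaves the BDNF precursor inside the cell, and PLAT encodes tissue plasminogen activator, which generates the plasmin that cleaves it outside.

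In receptor trafficking 4 of 12 tested genes rose and 3 fell. RAB7A, of late endosomes, rose by 0.81 (edgeR adjusted p = 0.0108), and HGS, which sorts ubiquitinated receptors, fell by 1.21 (adjusted p = 0.0124). Of 11 tested genes known to be induced by receptor or neuronal activity, HOMER1 rose by 1.68 (adjusted p = 0.0103) and 3 fell, among them JUNB by 1.38 (adjusted p = 0.0108).

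Over all 7 lists 27 of 105 tested genes rose and 35 fell, where 26.0% of all tested genes rose and 23.0% fell. Their median log2 fold change was -0.21 beside 0.15 for all tested genes, and 0.09 beside 0.03 with the GC trend removed. The transcript GC content of the 27 that rose had a median of 42.1%, and that of the 35 that fell a median of 61.5%, with no overlap between them. With the GC trend removed 4 of the 105 passed, all as higher and among them DOK6, PTPN11 and NF1, where 5.44% of all genes passed and 2.89% passed as higher. Under the deposited scaling 43 rose and 13 fell, where 6396 of all 16574 genes rose and 1665 fell. With library totals alone all 78 that passed were higher, where 11293 of all 16574 genes passed as higher. Without IR control 3 the lists held 4 called genes, and without IR control 2, IR+Oligonol 1 or IR+Oligonol 3 they held 17, 15 or 12.

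**Figure D5:**
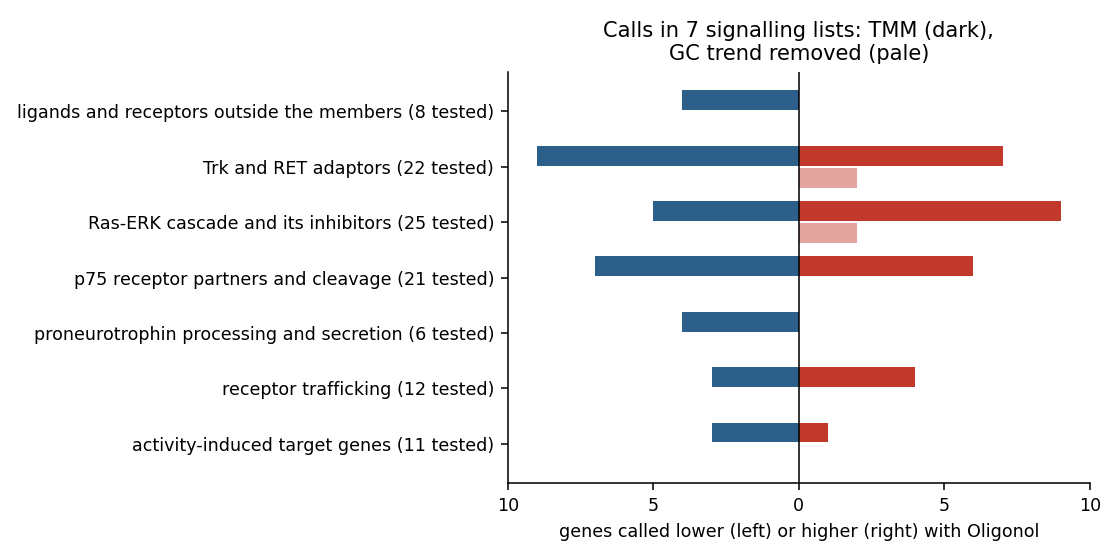
Number of genes called lower (left, blue) or higher (right, red) with Oligonol in each of 7 lists of signalling genes, at an edgeR adjusted p under 0.05, with dark bars for TMM scaling and pale bars after removal of the GC trend. Dark bars stand on both sides in 5 of the lists, and the pale bars that remain are the 2 genes each of the adaptor and Ras-ERK lists.

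The identity of the cells was checked by markers. Of 10 noradrenergic neuroblast genes 9 could be tested, among them PHOX2A at 45.1 CPM in IR+Oligonol and 79.8 CPM in IR control libraries, and DBH at 10.8 CPM in IR+Oligonol and 16.6 CPM in IR control libraries. TH, the tyrosine hydroxylase gene, was near 0 at 0.0319 CPM in IR+Oligonol and 0.0869 CPM in IR control libraries. The summed level of the list was 128.2 to 177.7 CPM in IR+Oligonol and 211.9 to 249.1 CPM in IR control libraries, with 2 of the 9 called lower, HAND1 and GATA2. Of 6 neuronal markers MAP2, ELAVL4 and DCX rose and TUBB3 fell. None of these 6 calls in the 2 lists passed once the GC trend was removed (edgeR adjusted p = 0.0583 to 0.907). The median log2 fold change of the noradrenergic list was then 0.29, against -0.63 with the trend, and that of the neuronal list -0.03, against 0.69. Their part in the results above was not tested.

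Among markers of other cells that could carry the same receptors, the astrocyte, oligodendrocyte and myeloid ones were low. Astrocyte and oligodendrocyte markers summed to 1.32 to 1.85 CPM in IR+Oligonol and 0.994 to 1.40 CPM in IR control libraries, and myeloid markers summed to 0.801 to 1.37 CPM in IR+Oligonol and 0.594 to 1.55 CPM in IR control libraries, with 1 gene of each list tested and not called. Of 10 mesenchymal and Schwann-lineage genes, a lineage known to carry NGFR, 4 could be tested and CD44 rose by 1.32 (edgeR adjusted p = 0.0128). With the GC trend removed CD44 was at 0.89 (edgeR adjusted p = 0.0979). The others tested, VIM, FN1 and SNAI2, were not called, with log2 fold changes of -0.435, -0.371 and 0.119. The Schwann-lineage genes SOX10 and S100B averaged 0.113 and 0.116 CPM in IR+Oligonol and 0.341 and 0.0916 CPM in IR control libraries, and the whole list summed to 29.3 to 30.3 CPM in IR+Oligonol and 31.0 to 48.0 CPM in IR control libraries. VIM averaged 18.7 CPM in IR+Oligonol and 25.3 CPM in IR control libraries, where the single values were 20.3, 20.4 and 35.1 CPM. FN1 averaged 7.8 CPM in IR+Oligonol and 10.1 CPM in IR control libraries.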

How the data were processed

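Libraries were prepared from 2 ug of total RNA with a strand-marking kit and sequenced as paired reads of 100 nt, according to the labels. FastQC, kallisto 0.46.1, edgeR and GRCh38.p13 are named in the submitters' processing notes. The step from transcript to gene values, the annotation release and the use of strand are not given in the sources used here. Estimated counts per gene, not whole numbers, were deposited by the authors with a scaled signal that equalled the estimated count times 1 constant per library.

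For 58254 of the deposited identifiers GENCODE release 29 gave transcript length and GC content. Estimated counts were turned into read equivalents with a fragment length and scale fitted per library. For low genes with 1 transcript, 76.6 to 79.5% of the resulting values were whole to within 0.05, which is no independent check since the fit favours whole numbers. Read equivalents of protein-coding genes summed to 5200319 to 6405205 per library.

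Rounded estimated counts were filtered with filterByExpr (16574 genes) and TMM-scaled before edgeR 4.0.16 (quasi-likelihood, robust, group as single term, 2-sided) was run in R 4.3.3, with Benjamini-Hochberg adjustment over all genes and a threshold of 0.05. SE is the one implied by the test. The GC trend was a natural spline with 5 degrees of freedom, fitted per library on protein-coding genes and used as offset. Alternatives were other scalings, DESeq2 1.42.0, limma 3.58.1 (voom), other filters, read equivalents and leaving out each library. The 10 genes and the lists were chosen with earlier results of these data known. From each list the 2 tested genes with the smallest p are named, beside fixed genes such as NTF3 and NRTN, and for RET the 3 genes of most similar pattern. PSPN, GDF15, PTPN11 and marker genes were named after their values were seen. Protein sequences were not used here. Some genes that this rule names are not reported here.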

Additional observations from a re-analysis of the deposited data

How the results depend on the processing

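Of the 10 genes, 2 passed with TMM scaling, of 5 tested, where 8112 of all 16574 genes passed. The number in the set was 4 with RLE scaling and limma-voom, of 5 tested, where 8076 and 8134 of 16574 genes passed. It was 4 of 6 tested with TMM on protein-coding genes, where 7502 of 11724 genes passed. On read equivalents of the median and longest transcript 6 of 9 passed, where 9584 of 18870 and 9149 of 20435 genes passed. With the GC trend removed 0 of 5 passed, with or without the replicate block. At an unadjusted p under 0.05 there were 2 genes and 1 gene (edgeR). The number was 1 of 9 on read equivalents of either transcript with the GC trend removed. It was 1 of 5 at an adjusted p under 0.01 and 4 of 5 under 0.1, where 2180 and 9835 of 16574 genes passed. With 1 library left out it was 0 to 5. The 0 of 6 came without IR control 3, where 782 of 20071 genes passed. The 5 of 6 came without IR+Oligonol 2, where 9492 of 20431 genes passed. The read-equivalent fits with the GC trend removed, those with the longest transcript and the deposited scaling were added after seeing the data.

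All genes called came to 4567 with no filter, 882 with the GC trend removed, 0 with that removal and the replicate block (edgeR, 3995 at an unadjusted p under 0.05), 2015 and 1404 on read equivalents of the median and longest transcript with the GC trend removed, 2180 at an adjusted p under 0.01, and 782 to 9492 with 1 library left out. With the GC trend removed as well, it was 488 without IR control 1, 491 without IR+Oligonol 2 and 0 without each of the others (3070 to 3642 at an unadjusted p under 0.05). Of the list genes, where 62 passed with TMM, the same settings gave 32, 4, 0, 11 and 6, then 12, and 4 to 75, or 0 to 2 with the GC trend removed as well.

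RET had log2 fold changes of 0.69 with library totals alone, 0.16 with the GC trend removed, 0.17 with the replicate block added, and 0.11 and 0.082 on read equivalents of the median and longest transcript with the GC trend removed. With the GC trend removed and 1 library left out RET was at 0.13, 0.16 and 0.15 without IR+Oligonol 1, 2 and 3 and at 0.26, 0.088 and 0.077 without IR control 1, 2 and 3, NTRK2 was at -0.028 without IR control 2 and GFRA2 at 0.030 without IR control 3. GFRA3, at -0.44 on read equivalents, was at 0.43 and 0.44 with the median and longest transcript and the GC trend removed. With library totals alone GFRA1 was at 0.92 and GFRA2 at 0.46. The causes were not tested. GDNF was below 3 reads in 6 libraries with its median transcript and in 1 with its longest.

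Same-numbered libraries did not deviate together (correlations of deviations 0.09, -0.01 and -0.15), so the numbers were not taken as pairs. With the replicate block 2 of the 10 genes passed, of 5 tested, and 7030 of all 16574 genes tested. Depth limits BDNF, GDNF and GFRA3, which rest on few reads, and NTRK3 if its reads came from the median transcript.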
